A study of Mus musculus with 10 samples.

Results

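The circadian clock genes described here are the 10 rows of a deposited mouse retina count table named Arntl, Clock, Per1, Per2, Per3, Cry1, Cry2, Nr1d1, Dbp and Bhlhe40, taken by symbol out of 36115 genes. Each symbol stood on 1 row, and all 10 passed the low-count filter. The study compared retinas of untreated C57BL/6 mice aged 3 months, with 5 wild-type libraries (W1 to W5) and 5 libraries labelled B6.129S2-Il6tm1Kopf/J (K1 to K5), a mouse line whose interleukin-6 gene is interrupted in the germ line and therefore in every cell. The libraries were bulk RNA of whole retina. The labels give neither the hour at which retinas were taken nor the light schedule, so genotype and time of collection cannot be told apart in any difference below. They also do not say that each library is a separate animal, so the spread behind each p-value is that of libraries and may be partly technical.

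The mammalian clock is a loop of transcription. The proteins BMAL1 (gene Arntl) and CLOCK bind E-box sequences and switch on the Per and Cry genes, whose products return to the nucleus and block BMAL1 and CLOCK. A second loop runs through Nr1d1, which encodes the repressor REV-ERBα and acts on Arntl at sites shared with the ROR activators, and DBP drives output genes through D-box sequences. In a tissue whose clock is running, Dbp, Nr1d1 and the Per genes peak near one part of the day and Arntl near the opposite part, so that a shift of phase moves these arms apart or together. The mouse retina holds its own clock, spread over several cell types, and it times melatonin, dopamine and the sensitivity of photoreceptors. In bulk RNA, fewer cells of a type and less RNA per cell cannot be told apart.

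Letters of the sequences named above were searched for upstream of these genes, and whether any match is bound or used was not tested. RefSeq promoter windows (GRCm38.p6) were found for 8 of the 10 genes, in 12 windows because some genes have several start sites, and the 250 bases before each start site were searched on both strands. The motifs searched were the E-box CACGTG, the D-box TTATGTAA and AGGTCA, the core of the ROR and REV-ERB element, and none of the matches overlapped. An E-box was present in 2 genes, Per1 and Cry1, against 6.02% of all 32851 windows. A D-box was present in 1 gene, Per3, which holds it at 2 places, against 0.819% of all windows. The AGGTCA core was present in 2 genes, Per1 and Clock, against 14.0% of all windows. These are counts of genes, while the shares are of single windows. A gene with several windows, such as Per1 or Clock, is thus searched more often. In the windows of Arntl, Cry2, Nr1d1 and Dbp none of these letters occurred. The stretches from -225 to -26 of the start site are printed for the genes with an E-box or D-box, 5′ to 3′ on the gene's own strand, with the matches in capitals. They lie at chr11:69098724-69098923 (plus strand) for Per1, where TGACCT is the AGGTCA core read on the other strand, chr4:151044691-151044890 (minus strand) for Per3 and chr10:85185080-85185279 (minus strand) for Cry1.
Per1: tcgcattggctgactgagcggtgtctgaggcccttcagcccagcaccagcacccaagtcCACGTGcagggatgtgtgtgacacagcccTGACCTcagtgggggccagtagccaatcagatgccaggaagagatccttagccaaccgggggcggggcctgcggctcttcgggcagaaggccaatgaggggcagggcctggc
Per3: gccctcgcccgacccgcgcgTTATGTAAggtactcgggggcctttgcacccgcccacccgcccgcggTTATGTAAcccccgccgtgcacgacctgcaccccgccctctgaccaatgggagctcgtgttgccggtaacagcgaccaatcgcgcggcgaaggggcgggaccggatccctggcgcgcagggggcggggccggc
Cry1: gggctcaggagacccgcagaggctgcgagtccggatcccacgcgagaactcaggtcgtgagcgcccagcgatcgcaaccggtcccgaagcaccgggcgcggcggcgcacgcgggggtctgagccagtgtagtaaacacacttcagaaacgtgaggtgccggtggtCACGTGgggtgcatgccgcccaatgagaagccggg

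Library totals ran from 30433373 to 38857374 counts. Il6 checks the labels poorly. The wild-type libraries W1 to W5 held 0, 0, 1, 1 and 1 reads of it and K1 to K5 held 3, 3, 5, 7 and 4, which goes against the knockout label, but a gene-level count cannot separate the interrupted part from the rest. Every direction given here thus follows the labels. Retinal identity was plain: 8 rod markers together held 57082 to 72089 CPM (TMM-scaled counts relative to library size) in wild type and 51503 to 73125 CPM in the libraries labelled knockout, and 1 of the 8, the arrestin gene Sag, fell. Markers of the neighbouring pigment epithelium, all 8 of which were tested and none of which changed, summed to 33.6 to 415 CPM in wild type, lowest in W5 and highest in W2, and to 173 to 336 CPM in the libraries labelled knockout. Markers of lens, cornea with ciliary body, muscle and blood each summed to at most 120 CPM. None of the markers in these lists was at 0 in all 10 libraries, and the groups overlapped in the sum of every list.

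No clock gene passed the test. Of the 10 genes, 0 were called by edgeR's quasi-likelihood test at an adjusted p under 0.05 over all genes, where 2.03% of 18965 tested genes were called. At an unadjusted edgeR p under 0.05 there were 4, Arntl, Per1, Dbp and Bhlhe40, beside 13.8% of all tested genes, and 3 of them were lower in the libraries labelled knockout, beside 7.03% of all. DESeq2 called 1, Bhlhe40, where it called 763 over all genes, and limma-voom called 0, where it called 342. A log2 fold change below 0 was measured for 9 of the 10, with a median of -0.12 over the list, where 49.6% of all tested genes were below 0 and the median was 0.0018. The sign of Cry1, close to 0, turned without W2, W3, K3 or K5 and without W5 and K5 together, and that of Cry2 without K4. In none of the 10 genes did the groups separate fully, where 3.47% of tested genes did.

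**Figure D1:**
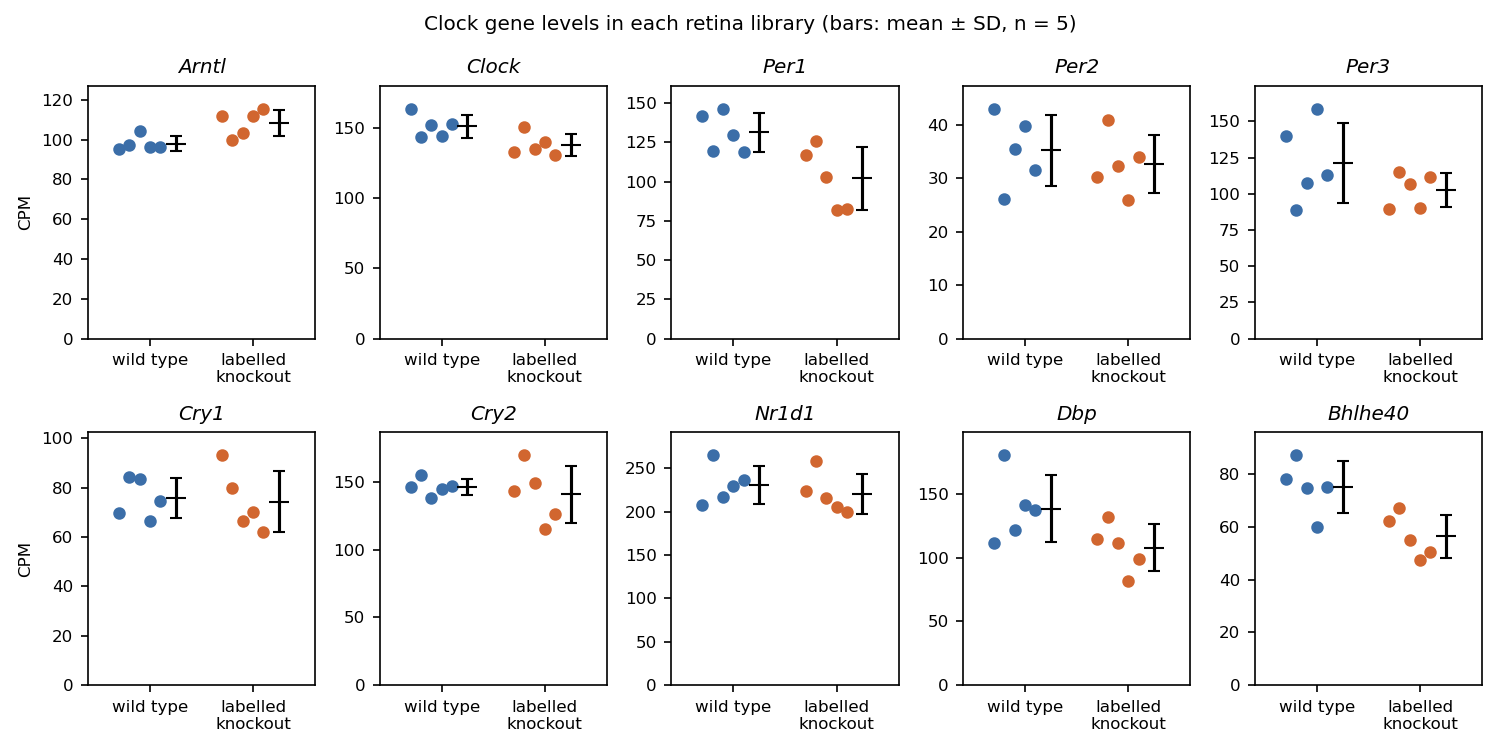
Level of each of the 10 clock genes in CPM (vertical axes from 0) in the 5 wild-type (blue) and 5 labelled knockout (orange) libraries, with the mean and SD of each group beside the points. The groups overlap in every panel. The lowest labelled knockout point lies below all wild-type points in every panel except those of Arntl and Per3.

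Levels can be compared between genes only per length of exon. On that scale, as CPM divided by exon length in kilobases, Nr1d1 was the most abundant member, at 75.1 ± 7.14 in wild type and 71.7 ± 7.50 in libraries labelled knockout (SD, n = 5). Dbp followed at 46.4 ± 8.82 and 36.1 ± 6.21, and Per2 was the least abundant at 6.01 ± 1.14 and 5.58 ± 0.934. The ranges of Nr1d1 over Dbp, of Dbp over Cry2 and of Clock over Per2 were apart in all 10 libraries. The other neighbours in the order, from Cry2 through Cry1, Per1, Bhlhe40, Arntl and Per3 to Clock, had overlapping ranges. Cry2, Cry1 and Per1 stood within 18.1 to 23.3 as group means.

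The activator genes leaned in opposite directions. Arntl (ENSMUSG00000055116.8, chromosome 7, 113207465 to 113314126, plus strand, GRCm38), which encodes BMAL1, stood at 95.3, 97.4, 104, 96.3 and 96.3 CPM in W1 to W5 and at 112, 99.6, 103, 112 and 115 CPM in K1 to K5. K1, K4 and K5 lay above every wild-type library, and K2 and K3 lay within the wild-type range. The means were 97.9 ± 3.65 and 108 ± 6.67 CPM (SD, n = 5), for a log2 fold change of 0.15 ± 0.06 (SE) and a 95% interval of 0.01 to 0.28 (edgeR, adjusted p = 0.307). Arntl was the only member with a positive log2 fold change.

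Clock (ENSMUSG00000029238.11, chromosome 5, 76209868 to 76304792, minus strand), the DNA-binding partner of BMAL1, stood at 164, 143, 153, 144 and 153 CPM in W1 to W5 and at 133, 151, 135, 140 and 131 CPM in K1 to K5. Here 4 of the 5 libraries labelled knockout lay below every wild-type library and K2 lay within them. The log2 fold change was -0.13 ± 0.06, with an interval of -0.27 to 0.01 (edgeR, adjusted p = 0.385). The ratio of Arntl to Clock in CPM was 0.649 ± 0.0429 in wild type and 0.789 ± 0.0845 in libraries labelled knockout (SD, n = 5), and it lay above all wild-type libraries in K1, K3, K4 and K5. That ratio was chosen after the values were seen and was not tested.

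Of the Per genes, which encode the repressors that leave and re-enter the nucleus with the cryptochromes, Per1 had the log2 fold change farthest below 0. Per1 (ENSMUSG00000020893.17, chromosome 11, 69095217 to 69109960, plus strand), whose E-box is printed above, stood at 142, 120, 146, 130 and 119 CPM in W1 to W5 and at 117, 126, 103, 82.1 and 82.5 CPM in K1 to K5. All libraries labelled knockout except K2 lay below every wild-type library, K1 only narrowly. The means were 131 ± 12.5 and 102 ± 19.8 CPM, for a log2 fold change of -0.36 ± 0.11 (SE, n = 5) and an interval of -0.61 to -0.12 (edgeR, adjusted p = 0.140). Without a low-count filter, where all 36115 genes entered the fit, that adjusted p was 0.0407. Over all 18 alternatives it ran from 0.0407 to 0.332.

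Per2 and Per3 differed more between libraries of 1 group than between the groups. Per2 (ENSMUSG00000055866.9, chromosome 1, 91415982 to 91459324, minus strand) stood at 43.0, 26.2, 35.4, 39.9 and 31.6 CPM in W1 to W5 and at 30.2, 40.9, 32.3, 26.0 and 33.9 CPM in K1 to K5. Per3 (ENSMUSG00000028957.12, chromosome 4, 151003652 to 151044665, minus strand), whose paired D-boxes are printed above, stood at 140, 88.5, 107, 159 and 113 CPM in W1 to W5 and at 89.8, 115, 107, 90.4 and 112 CPM in K1 to K5. W2 was the lowest wild-type library in both genes and W1 and W4 the highest pair. Their log2 fold changes were -0.11 ± 0.13 (interval -0.39 to 0.17) and -0.24 ± 0.13 (interval -0.52 to 0.04) (edgeR, adjusted p = 0.783 and 0.444). Both values moved with single libraries: Per2 moved from -0.20 without W2 or K2 to -0.03 without W1 and -0.04 without K4, and to -0.06 without W4. Per3 moved from -0.34 without W2 to -0.13 without W4.

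The cryptochromes, the stronger repressors of BMAL1 and CLOCK, had nearly equal group means. Cry1 (ENSMUSG00000020038.10, chromosome 10, 85131700 to 85185064, minus strand) stood at 69.8, 84.2, 83.5, 66.4 and 74.7 CPM in W1 to W5 and at 93.0, 79.9, 66.5, 70.1 and 62.1 CPM in K1 to K5. Cry2 (ENSMUSG00000068742.11, chromosome 2, 92403646 to 92434043, minus strand) stood at 146, 155, 139, 145 and 147 CPM in W1 to W5 and at 144, 170, 150, 116 and 127 CPM in K1 to K5. For each of them the highest and the lowest library of all 10 were both labelled knockout, K1 and K5 in Cry1 and K2 and K4 in Cry2. Their log2 fold changes were -0.03 ± 0.10 and -0.05 ± 0.09, with intervals of -0.25 to 0.20 and -0.25 to 0.14 (edgeR, adjusted p = 0.945 and 0.851).

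In the second loop and the output arm, both Nr1d1 and Dbp had log2 fold changes below 0, and neither passed the test. Nr1d1 (ENSMUSG00000020889.11, chromosome 11, 98767932 to 98775333, minus strand), the REV-ERBα repressor, stood at 207, 265, 217, 229 and 237 CPM in W1 to W5 and at 224, 258, 216, 205 and 199.6 CPM in K1 to K5. Dbp (ENSMUSG00000059824.12, chromosome 7, 45705088 to 45710203, plus strand), a D-box activator with one of the widest daily swings known, stood at 111, 181, 122, 142 and 138 CPM in W1 to W5 and at 115, 132, 112, 82.3 and 99.6 CPM in K1 to K5. W2 was the highest library of all in both genes, and K4 and K5 lay below every wild-type library in both. For Nr1d1 the log2 fold change was -0.07 ± 0.09, with an interval of -0.25 to 0.11 (edgeR, adjusted p = 0.793). That value of Nr1d1 was -0.01 without W2, -0.03 without K5, -0.04 without K4, -0.10 without W1 and -0.13 without K2. For Dbp it was -0.36 ± 0.13, with an interval of -0.64 to -0.08 (edgeR, adjusted p = 0.213), and -0.25 without W2, which also had the highest sum of pigment epithelium markers (415 CPM). W1, next among the wild-type libraries in that sum at 309 CPM, had the lowest wild-type Dbp. K3 lay between W2 and W1 in that sum, at 336 CPM. The part of these markers in the level of Dbp was not tested, and neither was the difference between the genes' fold changes.

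Counts of 5 members may be changed by a neighbour on the opposite strand, through reads gained or lost in shared exon bases. The sources used here do not give the strand setting of the counting. Exons of Nr1d1 share 263 bases with Thra, a thyroid hormone receptor gene, and exons of Dbp share 539 bases with Sphk2, a sphingosine kinase gene. Thra stood at 242 ± 12.3 and 272 ± 12.7 CPM, for a log2 fold change of 0.17 (edgeR, adjusted p = 0.251). Sphk2 stood at 19.4 ± 1.07 and 19.0 ± 1.39 CPM, far below Dbp. Exons of Cry2 share 295 bases with D930015M05Rik, those of Bhlhe40 118 bases with 0610040F04Rik and those of Arntl 33 bases with Gm45355, genes with 359, 207 and 43 reads over all 10 libraries.

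Bhlhe40 came nearest to the threshold. This gene (ENSMUSG00000030103.11, chromosome 6, 108660629 to 108666925, plus strand) encodes DEC1, an E-box binding repressor that is induced by the clock and also by light and other stimuli. It stood at 78.2, 87.1, 74.8, 60.1 and 75.2 CPM in W1 to W5 and at 62.3, 67.3, 54.9, 47.6 and 50.5 CPM in K1 to K5. K3, K4 and K5 lay below every wild-type library, while W4 lay below K1 and K2. The means were 75.1 ± 9.72 and 56.5 ± 8.19 CPM, for a log2 fold change of -0.41 ± 0.11 (SE, n = 5) and an interval of -0.63 to -0.18 (edgeR, adjusted p = 0.0609). It was called in 5 of 18 alternatives: with DESeq2 (adjusted p = 0.0203), with all genes kept (0.0107), with 1 surrogate variable (0.0181), without W4 (0.0207) and without K2 (0.0350). Its adjusted p lay between 0.0107 and 0.224 in the 18 alternatives. In the authors' deposited table Bhlhe40 was the only member with an adjusted p under 0.05, at 0.0191 and a log2 fold change of -0.36, beside 3.37% of the 21411 genes given one. The authors' deposited table gave Per1 an adjusted p of 0.0775, Dbp 0.149 and the other members 0.302 to 0.966.

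**Figure D2:**
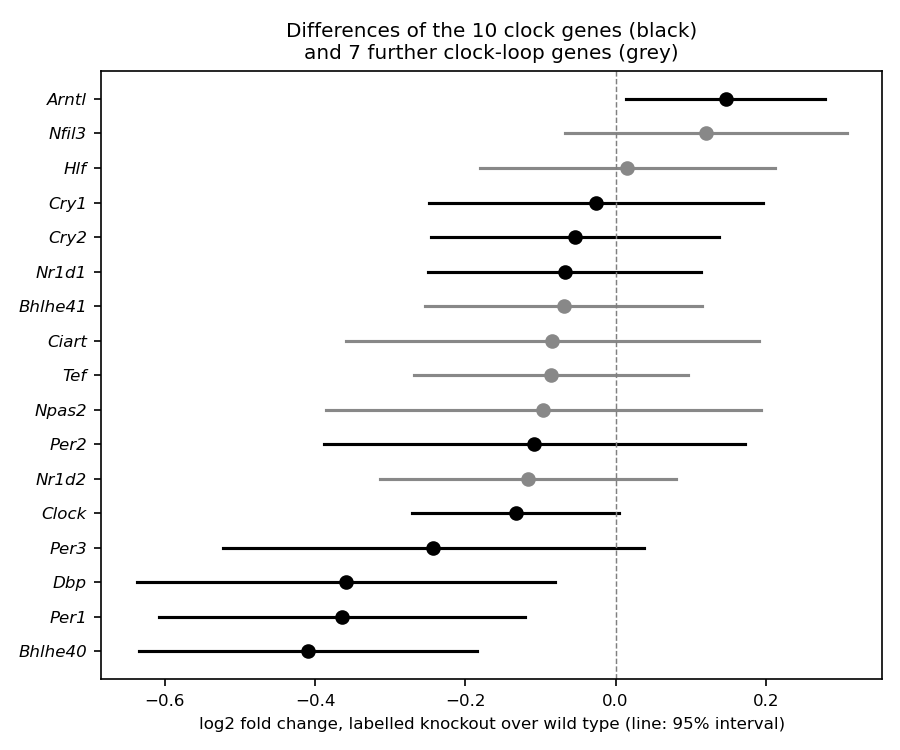
Log2 fold change of libraries labelled knockout over wild type (horizontal axis) with its 95% interval, for the 10 clock genes (black) and 7 further genes of the loop (grey). Intervals of Arntl, Dbp, Per1 and Bhlhe40 do not reach 0, while after adjustment over all genes none of the 17 passed the test.

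Further genes of the transcription loop gave a mixed picture. Of 12 such genes, all tested, 0 rose and 0 fell by edgeR, beside 2.03% of all tested genes called. At an unadjusted edgeR p under 0.05 there was 1, beside 13.8% of all tested genes. DESeq2 called 1, where it called 763 over all genes, and limma-voom called 0, where it called 342. The median log2 fold change was -0.07. Nr1d2, the partner repressor of Nr1d1, stood at 230 ± 10.1 and 213 ± 33.4 CPM, a log2 fold change of -0.12 ± 0.09. Tef and Hlf, of the same D-box family as Dbp, had values of -0.09 and 0.02, and Ciart, a repressor of BMAL1, had -0.08. Bhlhe41, the close relative of Bhlhe40, had -0.07, Npas2, which can take the place of Clock, -0.10, and Nfil3, the D-box repressor, 0.12. Their edgeR adjusted p ran from 0.602 to 0.966. The difference of Bhlhe40 was thus not matched in size by Bhlhe41, nor that of Dbp by Tef or Hlf, although the differences between these genes were not tested.

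Among kinases, ubiquitin ligases and co-regulators that act on or with clock proteins, 18 of 18 were tested. By edgeR 0 rose and 0 fell, beside 2.03% of all tested genes called. DESeq2 called 1, where it called 763 over all genes, and limma-voom called 0, where it called 342. The median log2 fold change was 0.00. At an unadjusted edgeR p under 0.05 there was 1 gene, beside 13.8% of all tested genes. That gene, described after its values were seen, was Btrc, whose product marks PER proteins for destruction. It stood at 94.8, 97.8, 90.4, 96.2 and 127 CPM in W1 to W5 and at 126, 117, 141, 119 and 133 CPM in K1 to K5. W5 lay among the libraries labelled knockout, and the other wild-type libraries lay below all of them. The log2 fold change was 0.33 ± 0.09 (edgeR, adjusted p = 0.0879), and 0.42 (edgeR, adjusted p = 0.00562) without W5.

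The retina's own rhythm genes, for melatonin synthesis, dopamine and light input, held 1 gene that passed the test. Of 14, 11 were tested, 0 rose and 1 fell by edgeR, beside 2.03% of all tested genes called, 2 had an unadjusted edgeR p under 0.05, beside 13.8% of all, and the median log2 fold change was -0.10. The gene was Vip, a neuropeptide of amacrine cells that also couples clock cells in the brain. It stood at 26.9, 23.4, 21.3, 21.8 and 22.9 CPM in W1 to W5 and at 19.0, 17.4, 18.8, 19.7 and 16.2 CPM in K1 to K5, with every library labelled knockout below every wild-type one, a separation seen in 3.47% of tested genes. Markers of amacrine and horizontal cells, 0 of 6 of which changed, summed to 698 to 794 CPM in wild type and 644 to 766 CPM in libraries labelled knockout, and their part in the level of Vip was not tested. The log2 fold change was -0.35 ± 0.09 (SE, n = 5) (edgeR, adjusted p = 0.0480). The call ended when any 1 library was left out, with adjusted p of 0.0526 to 0.126, with limma-voom (0.0560) and with upper-quartile factors (0.0520), and the alternatives together spanned 0.00985 to 0.182. Drd4 and Adcy1, a dopamine receptor and an adenylyl cyclase of photoreceptors known for strong daily rhythms, had log2 fold changes of -0.04 and -0.20 (edgeR, adjusted p = 0.901 and 0.317). Aanat, which encodes an enzyme of melatonin synthesis, stood at 0.185 to 0.698 CPM in wild type and at 0.190 to 0.557 CPM in libraries labelled knockout, for a log2 fold change of -0.01.

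Lists that follow the clock, stress hormone or light showed no called gene. Over all tested genes, edgeR called 2.03%, and 13.8% had an unadjusted edgeR p under 0.05. Of 10 genes under clock control in many tissues, such as Wee1 and Usp2, 0 were called by edgeR, DESeq2 or limma-voom, with 1 at an unadjusted edgeR p under 0.05 and a median log2 fold change of -0.03. Of 8 genes induced by glucocorticoids, which also induce Per1, 0 were called by any of these tools, with 0 at an unadjusted edgeR p under 0.05 and a median of -0.07. Of 9 tested immediate early genes, which light induces in the retina within minutes, 0 were called by any of these tools, with 1 at an unadjusted edgeR p under 0.05 and a median of 0.04.

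The arms of the clock were then read together for each library. The arm that peaks with Dbp was taken as the mean log2 CPM of 10 genes (Dbp, Nr1d1, Nr1d2, Per1, Per2, Per3, Tef, Hlf, Ciart and Bhlhe41), and the arm that peaks with Arntl as that of 5 genes (Arntl, Clock, Npas2, Cry1 and Nfil3). The Dbp arm stood at 6.89, 6.90, 6.89, 6.99 and 6.89 in W1 to W5 and at 6.78, 7.04, 6.78, 6.56 and 6.64 in K1 to K5. Wild-type libraries lay close together, while K2 lay above all of them and the other 4 libraries labelled knockout below all of them. The group means were 6.91 ± 0.0459 and 6.76 ± 0.183 (SD, n = 5), a difference of -0.15. The Arntl arm stood at 5.23 ± 0.0530 and 5.23 ± 0.0495, a difference of 0.0010, with overlapping groups. The names of the arms follow phases known from mouse tissues. After group means were removed, Pearson r with Arntl over the 10 libraries was -0.50 for Clock and -0.39 for Npas2. It was 0.06 for Cry1 and 0.59 for Nfil3. Whether the genes of an arm peaked together in these retinas was not tested.

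The contrast of the arms, Dbp arm minus Arntl arm, took the values 1.71, 1.62, 1.59, 1.80 and 1.68 over W1 to W5, and 1.49, 1.80, 1.58, 1.29 and 1.47 over K1 to K5. In K1, K3, K4 and K5 it lay below all wild-type values, for K3 by a small margin, and its group means differed by -0.15 (1.68 ± 0.0813 against 1.53 ± 0.185, SD, n = 5). Without K4 the difference was -0.0942 and without K2 it was -0.22. The mean of the Arntl arm averages genes with log2 fold changes on both sides of 0 (Arntl 0.15, Nfil3 0.12, Clock -0.13, Npas2 -0.10 and Cry1 -0.03). With only members in the arms (Per1, Per2, Per3, Nr1d1 and Dbp against Arntl, Clock and Cry1) the difference was -0.22. There 3 libraries labelled knockout lay below all wild type. The members Cry2 and Bhlhe40 were in neither arm of either contrast. Because its genes were chosen with results known, the contrast was not tested. The single ratio of Dbp to Arntl was 1.42 ± 0.281 in wild type and 1.01 ± 0.226 in libraries labelled knockout, with K1, K3, K4 and K5 below every wild-type library.

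**Figure D3:**
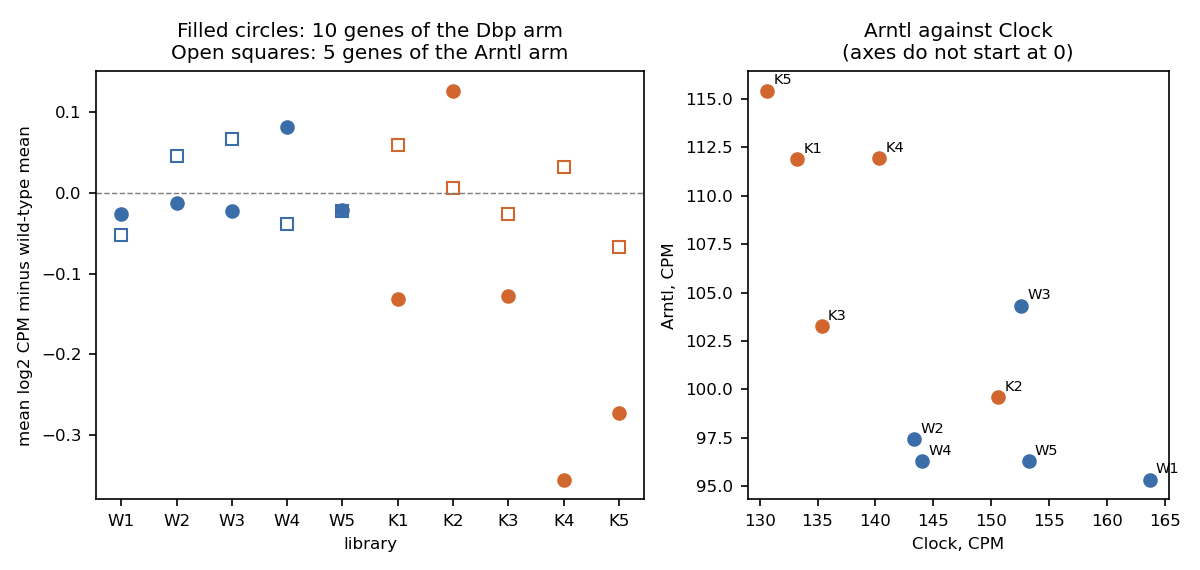
Left, mean log2 CPM of the Dbp arm (filled circles, 10 genes) and the Arntl arm (open squares, 5 genes) in each library, as the difference from the wild-type mean of that arm. Right, Arntl against Clock in CPM for each library (wild type blue, labelled knockout orange), where K1, K3, K4 and K5 sit at lower Clock and K1, K4 and K5 at higher Arntl than wild type.

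Within each genotype the clock genes varied more than most genes of like level. The SD of log2 CPM around the group means was 0.26 for Per3, Per2 and Dbp, 0.22 for Per1, 0.20 for Bhlhe40 and Cry1, 0.16 for Cry2 and 0.14 for Nr1d1. Set against the 500 tested genes nearest in mean level, these were at percentiles 97.6, 93.6, 97.0, 93.0, 90.6, 90.8, 80.2 and 62.8. Arntl and Clock were steady, with SDs of 0.07 and 0.08 at percentiles 9.2 and 13.0. A difference of a given size was therefore easier to detect in Arntl and Clock than in Per2, Per3 or Dbp, as the widths of their intervals show.

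That variation had a pattern of its own across libraries. After group means were removed, Dbp and Nr1d1 varied together (Pearson r = 0.90, Spearman rho = 0.84 over 10 libraries, and r = 0.79 without K2 and W2), and so did Per2 and Per3 (r = 0.86, rho = 0.87, and r = 0.75 without K4 and W2). The pairs did not follow each other: r was -0.09 between Per2 and Dbp and -0.19 between Per3 and Dbp. W1 shows the split, with Per2 at 0.31 and Per3 at 0.23 above its group mean on the log2 scale and Dbp at -0.30, and W2 shows the reverse, with Dbp at 0.40 above and Per2 and Per3 at -0.40 and -0.43. In K4, by contrast, Dbp, Per1, Per2 and Cry2 were all low, at -0.38, -0.29, -0.31 and -0.28, and in K2 Dbp, Per1, Per2 and Cry2 were all high, at 0.31, 0.33, 0.34 and 0.28. Arntl ran against Cry2 (r = -0.78, rho = -0.75, and r = -0.78 without K5 and W3). Cry1 followed Bhlhe40 (r = 0.72, rho = 0.72) and ran against Per3 (r = -0.64, rho = -0.72). Of the 45 pairs of members 29 had a positive r and 16 a negative one. These are descriptions over libraries that share depth and dissection, and no p was computed for them.

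**Figure D4:**
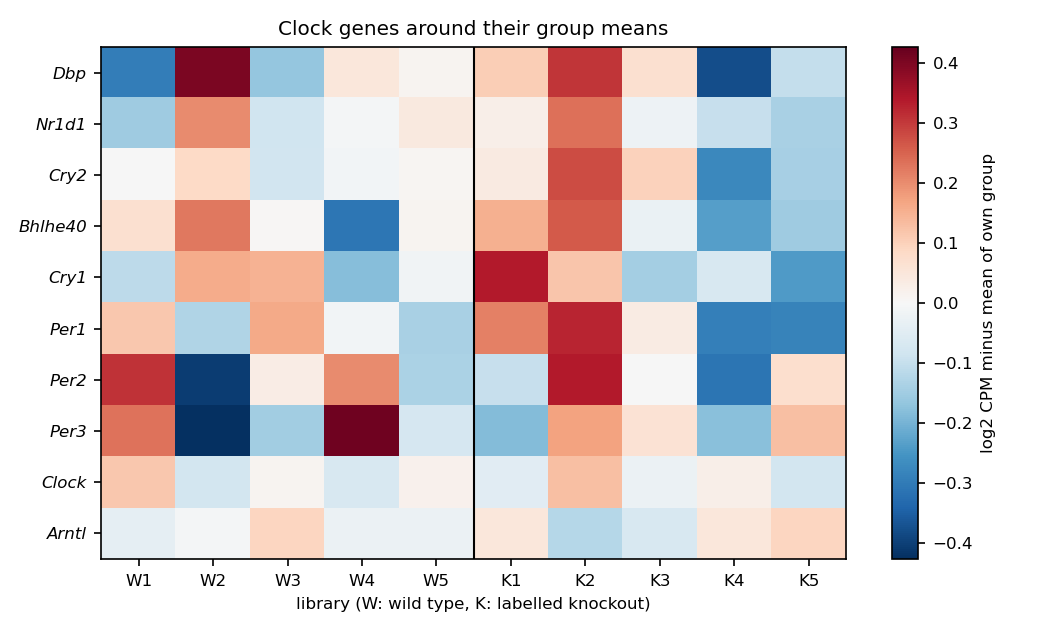
Each clock gene (rows) in each library (columns) as log2 CPM minus the mean of its own group, with red above and blue below that mean. Dbp and Nr1d1 share their pattern, Per2 and Per3 share another, and Arntl and Clock stay pale.

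The genes closest to Dbp and to Arntl lay outside the loop, although Nr1d1 came near the top for Dbp. Among 15403 other genes with a mean of at least 1 CPM, the 5 most like Dbp over the 10 libraries by Pearson r of group-centred log2 CPM were Mfsd5 (0.98), Gabrd (0.95), Cndp2 (0.93), Gm15487 (0.93) and Emc10 (0.92). The 5 most opposed to Dbp were Cmc4 (-0.97), Gm29361 (-0.96), 2310043P16Rik (-0.95), A130014A01Rik (-0.95) and Gm5297 (-0.93). The 5 most like Arntl were Zbtb3 (0.92), Ypel3 (0.92), Rpl10a (0.91), Wdr53 (0.89) and Iah1 (0.89), and the 5 most opposed were Neto1 (-0.95), Rgs8 (-0.95), Rnf152 (-0.93), Cd63-ps (-0.93) and Ankrd6 (-0.92). No clock gene was among them. Nr1d1 ranked 13 in likeness to Dbp, Tef 134 and Cry2 154, and the clock gene most opposed to Arntl, Cry2, ranked 137 from that end. The clock gene most like Arntl, Nfil3 (r = 0.59), ranked 610.

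**Figure D5:**
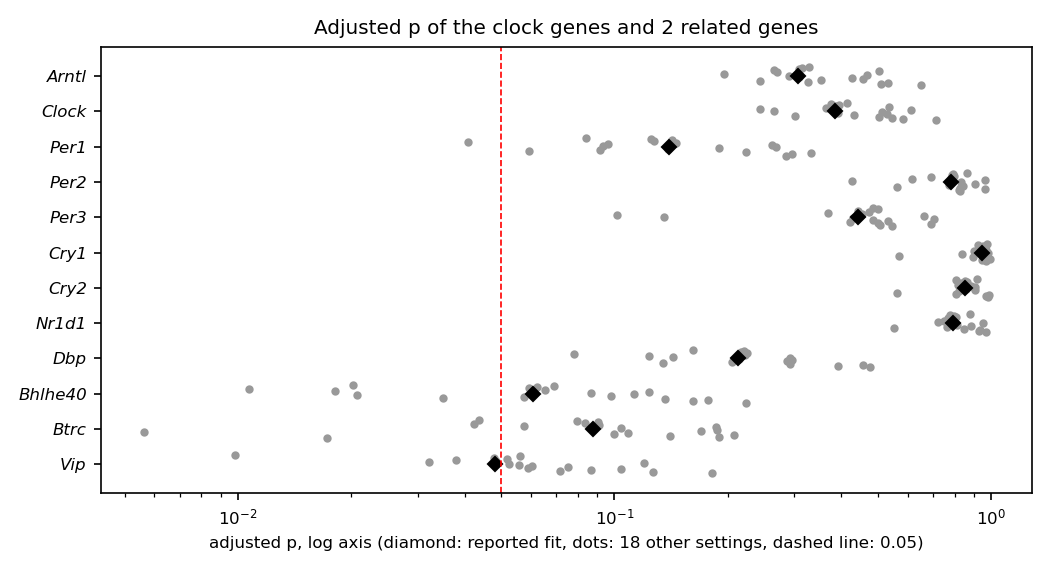
Adjusted p over all tested genes (horizontal log axis) for the 10 clock genes and for Btrc and Vip, with a black diamond for the edgeR fit reported and a grey dot for each of 18 other settings. Dots left of the dashed line at 0.05 occur for Bhlhe40, Per1, Btrc and Vip only.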

How the data were processed

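Retinal RNA was sequenced from 5 wild-type and 5 labelled knockout libraries, grouped by the genotype label and numbered in accession order. The authors deposited whole-number counts per gene, without normalization; STAR 2.5.3a, featureCounts 1.15.2, DESeq2 1.14 and the build GRCm38.p5 are named in the submitters' processing notes, beside bcl2fastq and FastQC. The same table holds the authors' DESeq2 values: the deposited signal (a mean of scaled counts) and mark of significance were not used, and the deposited log2 fold changes and deposited p-values were only quoted. No columns of other samples were present.

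Genes were filtered with filterByExpr (minimum count 10, minimum total 15), scaled with TMM and tested across all genes with edgeR 4.0.16 (glmQLFit, glmQLFTest), with genotype as the only term and Benjamini-Hochberg adjustment. A gene was called at an adjusted p under 0.05. The SE is the absolute log2 fold change over the square root of F, and 95% intervals use the t distribution with edgeR's degrees of freedom. Log2 CPM used a prior count of 2. No pair of libraries agreed within sampling noise. The code was tested on simulated data. Alternatives were DESeq2 1.42.0, limma-voom 3.58.1, RLE and upper-quartile factors, 2 other filters, 1 surrogate variable (sva 3.50.0), each library left out, and W5 with K5 left out. Annotation was GENCODE M21.

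The members and lists were chosen with earlier results of these data known. Named were all members, 7 phase genes, called list genes (up to 4 a list) and the 5 genes at each end in likeness to Dbp and Arntl. Others are marked as chosen after their values were seen. A result for 1 gene of the lists is not reported here.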

Additional observations from a re-analysis of the deposited data

Results flagged for a closer look

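In 3 of 38 groups of 5 libraries looked at (19 named genes in each genotype), 1 library lay far from the others by Dixon's ratio at its 95% value, where chance flags about 1 in 20. Arntl stood at 104 CPM in W3, against 95.3 to 97.4 CPM in the other wild-type libraries. Bhlhe41 stood at 96.7 CPM in W1, against 111 to 113 CPM. Btrc stood at 127 CPM in W5, against 90.4 to 97.8 CPM.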

How the results depend on the processing

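No paired analysis was possible because the labels carry no replicate numbers. The count of called clock members was 0 as reported, 1 with DESeq2, 2 with all genes kept, 1 under 1 surrogate variable and 0 to 1 when 1 library was left out. Further loop genes called were 1 with DESeq2 and 1 with 1 surrogate variable. Regulators called were 1 with DESeq2, 1 without a low-count filter, 0 to 1 with 1 library left out and 1 without W5 and K5. The retinal rhythm count of 1 became 0 with limma-voom, with upper-quartile factors, without W5 and K5, and for every library left out (0 to 0). Over all genes 385 were called, against 763 with DESeq2, 704 without a filter, 658 with 1 surrogate variable and 211 to 542 with 1 library left out (211 without K4, 240 without K5). The log2 fold change of Cry1 ran from -0.121 to 0.0314 with 1 library left out and was 0.0265 without W5 and K5, that of Cry2 from -0.129 to 0.0105 and that of Hlf from -0.0661 to 0.0720. Over the alternatives Drd4 ran from -0.0927 to 0.0242, Aanat from -0.269 to 0.284, Usp2 from -0.128 to 0.0027 and Sphk2 from -0.0778 to 0.0012. The other 8 members, the other 6 phase genes, Vip and Btrc kept their sign in all 18 alternatives. The difference in the phase contrast was -0.15 with a prior count of 0.5 and -0.22 with only members in the arms, without Cry2 and Bhlhe40. In an alternative chosen after seeing the data, it was -0.221 to -0.0942 with 1 library left out. The causes were not tested. The widest interval among the members, that of Per2, ran from -0.39 to 0.17 on the log2 scale. How small a change could be detected in each gene was not tested.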
